A study of Mus musculus with 6 samples.

Results

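The replication-dependent core histone genes encode the H2A, H2B, H3 and H4 proteins around which DNA is wound in the nucleosome. Their transcripts were taken from the count tables by symbol: every RefSeq transcript ID whose mouse symbol was H2ac, H2bc, H3c or H4c followed by a number was kept. This gave 55 transcript IDs of 53 genes, out of 23485 IDs in the tables. There were 14 IDs of H2A, 18 of H2B, 11 of H3 and 12 of H4.

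RNA-seq of stranded total RNA was used to compare the sexes in the whole brain at E15.5, in embryos of C57BL/6 wild-type mice. Both groups shared the genotype, stage and tissue and received no treatment. There were 3 female and 3 male samples, sexed by the absence or presence of testicular cords, and each was RNA pooled from several embryos, so that the spread between samples is a spread between pools. The labels gave no batch, litter or date, and no comparison within batches was made.

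Core histone genes lie in tandem clusters, have no introns in their main form and are transcribed mostly while a cell copies its DNA. Their mRNAs usually end without a poly(A) tail, in a short hairpin that the stem-loop binding protein recognises and that is cut by a complex containing the U7 small nuclear RNA. A fetal brain still holds many dividing progenitors beside neurons that have left the cell cycle, so the level of these mRNAs in bulk tissue depends on both. In such samples a smaller number of cells making an mRNA and less of that mRNA per cell cannot be told apart.

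The hairpin was searched in the 150 bases after the stop codon of each gene, in the NCBIM37 (mm9) assembly. It was found in 48 of the 53 core histone genes (90.6%) and in 5 of 21219 other protein-coding genes (0.024%). These others left out genes with a GENCODE name that starts with Hist. Histone variant genes with other names were not left out. The search may have missed a hairpin of H2bc18, as described below. The search asked for a stem of 6 base pairs, of which at least 5 had to pair, that opens with GG and closes with CC around a loop of 4 bases. Of the 48 hairpins, 28 had 1 common form, found in H2A, H2B and H3 genes. The H4 genes had other forms. The sequences below are shown because they cover the called gene H4c2, the most abundant members and the contrast between the 2 chromosomes described later. Capitals mark the 16 bases of the hairpin, written 5′ to 3′ on the gene's strand as DNA.
H2bc15 (chr13:21846397-21846422, plus strand): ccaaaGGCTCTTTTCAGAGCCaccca
H2ac15 (chr13:21845246-21845271, minus strand): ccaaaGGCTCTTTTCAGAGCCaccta
H3c6 (chr13:23653767-23653792, minus strand): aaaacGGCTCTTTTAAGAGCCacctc
H4c4 (chr13:23673814-23673839, plus strand): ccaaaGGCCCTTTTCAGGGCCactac
H4c8 (chr13:23623322-23623347, plus strand): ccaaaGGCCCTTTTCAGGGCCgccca
H4c2 (chr13:23849230-23849255, plus strand): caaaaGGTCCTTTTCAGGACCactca
H4c11 (chr13:21827301-21827326, plus strand): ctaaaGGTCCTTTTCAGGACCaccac
H4c14 (chr3:96066857-96066882, minus strand): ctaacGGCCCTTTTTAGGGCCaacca
H2ac20 (chr3:96024336-96024361, minus strand): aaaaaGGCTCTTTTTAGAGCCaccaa

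The proteins were nearly or wholly identical within a class. All 12 H4 genes encoded 1 protein of 103 residues. The 11 H3 genes encoded 2 proteins with 99.3% identity. The lowest identity between equally long members was 93.7% in H2B and 92.3% in H2A. Coding sequences were also similar, which bears on how well a read can be placed. The share of coding windows of 100 bases, a length somewhat below that of the reads, that also occurred in another core histone gene had a median of 74.4% in H2A, 68.6% in H3, 60.8% in H4 and 52.0% in H2B. It was 0% for H4c4 and H4c14, 61.5% for H4c2 and 100% for H4c17 and H4c18, whose coding sequences were the same. How the counting treated reads with several matches is not given in the sources used here, so the count of 1 copy is less certain than the sum over a class.

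The promoters of the members also shared short motifs. RefSeq promoter sequences (GRCm38.p6, 250 bases before to 50 after the start) gave 49 promoters of 48 genes, with 2 for H2bc6, and motifs were counted on both strands. The letters CCAAT occurred in 83.7% of these promoters and in 37.4% of 32851 promoters of all genes. TATAAA occurred in 57.1% against 13.6%, and the octamer ATTTGCAT in 24.5% against 1.7%. A stretch could count for more than 1 motif, and the promoters of H2A and H2B genes that stand head to head share sequence. By class, CCAAT was found in all H2A, H2B and H3 promoters and in 27.3% of H4 promoters, and the octamer in 46.7% of H2B and 35.7% of H2A promoters and in no H3 or H4 promoter. The 120 bases before the start of H2bc3, with all of these motifs, of H4c4, with CCAAT and TATAAA, and of H4c2, with none of them, are shown with the motifs in capitals (GRCm38.p6, plus strand; a CCAAT on the other strand reads ATTGG).
H2bc3 (chr13:23746614-23746733): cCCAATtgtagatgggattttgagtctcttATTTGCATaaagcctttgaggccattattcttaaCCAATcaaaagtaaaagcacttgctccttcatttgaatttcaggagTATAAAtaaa
H4c4 (chr13:23581448-23581567): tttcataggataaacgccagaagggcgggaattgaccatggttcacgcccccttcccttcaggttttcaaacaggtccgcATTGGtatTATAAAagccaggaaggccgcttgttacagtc
H4c2 (chr13:23756817-23756936): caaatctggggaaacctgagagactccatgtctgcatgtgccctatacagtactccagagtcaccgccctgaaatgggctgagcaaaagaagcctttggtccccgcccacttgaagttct

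The libraries held 4908565 to 10294443 counts, and 3 counts, the limit that a count of 0 allows, came to 0.30 to 0.598 CPM (counts scaled to a common library total, after the totals were adjusted by TMM factors of 0.94 to 1.03). Such limits cover counting error only. The transcripts that mark sex matched the labels in all 6 samples. Progenitor and neuron markers ranged widely. Sox2 was at 72.9 to 122 CPM, Nes at 474 to 575 CPM, Vim at 1580 to 1830 CPM and Tubb3 at 1230 to 1970 CPM. Eomes had 0 or 1 counts, both IDs of Snap25 were at 0 to 1.2 CPM and Dcx was at 2.75 to 5.19 CPM. Pax6 was not analysed here. Markers of other tissues were present as well, with Col1a1 of connective tissue at 4060 to 8390 CPM and the embryonic muscle myosin Myh3 at 1900 to 2790 CPM. An ID near 0 in these tables was not always a silent gene. H2az1, which encodes a histone variant made in most cells, had 0 to 3 counts in each sample, and the replication helicase subunit Mcm5 had 0 or 1.

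Core histone RNA was higher in the male samples. Summed over all members, female samples 1, 2 and 3 had 5605, 4608 and 6439 CPM, while male samples 1, 2 and 3 had 9527, 8712 and 6939 CPM. The lowest male sample, sample 3, lay just above the highest female sample, also sample 3, at 1.08 times its level, and the other male samples lay well above. The means were 5551 ± 916 CPM in females and 8393 ± 1320 CPM in males (SD, n = 3), a ratio of 1.51. These transcripts thus took 0.471% to 0.643% of the counts in female libraries and 0.706% to 0.896% in male libraries.

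Of the 55 IDs, 49 had the 10 counts in at least 1 sample needed for the test. The other 6 were H2B transcripts with 0 to 3 counts in each sample: H2bc1, H2bc6, H2bc23, both IDs of H2bc22 and 1 of the 2 IDs of H2bc4. H2bc1 is a testis histone, and the other 4 genes have 2 or 3 transcript models in RefSeq, whereas every gene with all its IDs tested has 1. The part of the transcript models in these low counts was not tested. Of the 49 tested IDs, 47 had a positive log2 fold change (male minus female), against 49.0% of all 13374 tested IDs. The median was 0.68, against −0.01 over all tested IDs. With each sample's trends on transcript length and GC content removed, 38 of the 49 were positive, the median was 0.39 and 2 members were lower in males at an unadjusted p under 0.05.

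At an adjusted p under 0.05, 1 of the 49 rose in males, H4c2, and none fell. Over all tested IDs 0.0299% passed. At an unadjusted p under 0.05, 36 of the 49 were higher in males, where the background was 6.68%, and none was higher in females, where it was 4.82%. For 24 of the 49 every male sample exceeded every female sample, which held for 8.7% of all tested IDs, and no member had the reverse order. The members do not vary independently of each other, so these counts are a description and not a number of separate results. The count of calls depended on the test: edgeR without the filter on low counts called 30 members (1.18% of all IDs), DESeq2 called 12 (0.71%), DESeq2 with an RUVr factor for unwanted variation called 16 (2.53%), and edgeR without female sample 3 called 15 (0.387%). All of these calls were higher in males.

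H4c2 encodes the common H4 protein from a single exon at chr13:23848806-23849296 (NCBIM37, plus strand, NM_178193). Female samples 1, 2 and 3 had 469, 246 and 688 counts, or 75.8, 49.0 and 70.1 CPM. Male samples 1, 2 and 3 had 1679, 966 and 1460 counts, or 173, 147 and 146 CPM. The lowest male sample lay further above the highest female sample than the samples of either sex lay apart. The log2 fold change was 1.25 (SE 0.16, edgeR quasi-likelihood adjusted p 0.0112). The call held in every alternative, with an adjusted p from 3.77e-13 to 0.0494, the last of these without female sample 2. Its nearest member, H4c1, had 96.8% of its coding bases and a log2 fold change of 0.38 (SE 0.17, adjusted p 0.426).

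**Figure D1:**
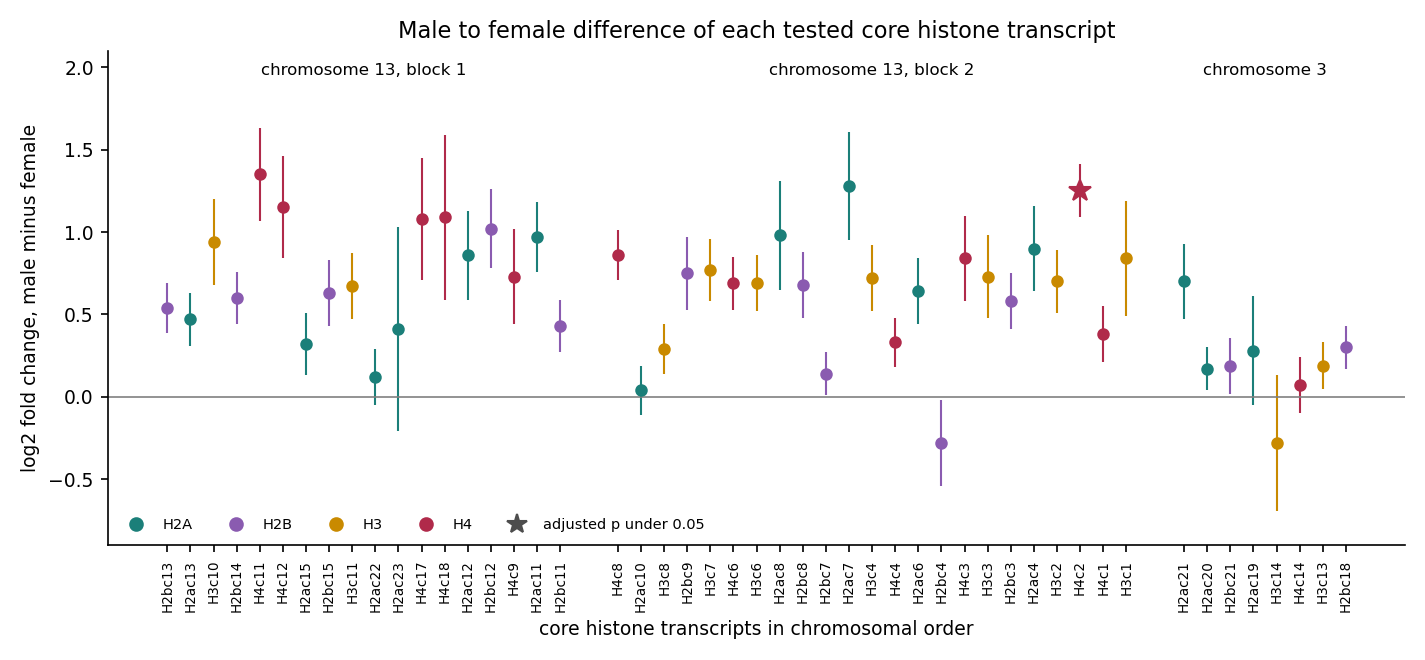
Log2 fold change (male minus female, vertical axis) of the 49 tested core histone transcripts in their order along chromosomes 13 and 3 (horizontal axis), coloured by class, with bars of 1 standard error. H4c2 is the only star, at 1.25, and most chromosome 13 members lie above most chromosome 3 members, with block medians of 0.70, 0.70 and 0.19.

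The H4 genes had the highest median log2 fold change of the classes, 0.85 over 12 tested IDs, from 0.07 for H4c14 to 1.35 for H4c11. All 12 were positive, 11 had an unadjusted p under 0.05 and 5 had no overlap between the sexes. The order of the classes was not kept throughout. When single samples were left out, the H3 median reached 1.0 and the H4 median at most 0.91. The summed H4 level was 2155, 1740 and 1940 CPM in females, listed as samples 1, 2 and 3, and 3590, 3248 and 2407 CPM in males. The sexes did not overlap, and the ratio of the means was 1.58. H4 made up 30.1% to 38.4% of core histone counts, more than any other class in every sample except female sample 3, where H2B was at 30.2%.

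H4c4 was the most abundant member, with 10.3% of all core histone counts and 1840 CPM per kilobase of transcript. It had 751, 655 and 558 CPM in female samples and 938, 841 and 697 CPM in male samples. Male sample 3 lay between female samples 1 and 2, so the sexes overlapped, and the log2 fold change was 0.33 (SE 0.15, adjusted p 0.41), which became 0.03 with length and GC trends removed. H4c8, the next by level at 991 CPM per kilobase, had 332, 247 and 340 CPM in females and 624, 569 and 474 CPM in males. Here every male sample was well above the females, and the log2 fold change of 0.86 (SE 0.15) had the second lowest p of the members but missed the threshold (adjusted p 0.157). It passed under DESeq2 (adjusted p 5.52e-05), with an RUVr factor in edgeR (0.0178) and without male sample 1 (0.039), over a range of 7.65e-07 to 0.809 in all alternatives.

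H4c3 had 248, 157 and 178 CPM in females and 454, 400 and 191 CPM in males. Male sample 3 fell within the female range, and the log2 fold change was 0.84 (SE 0.26, adjusted p 0.341). H4c6, with 182, 139 and 174 CPM in females and 329, 263 and 211 CPM in males, did not overlap and had a log2 fold change of 0.69 (SE 0.16, adjusted p 0.338). H4c11 had the largest fold change of all members in the edgeR fit. Its levels were 54, 36.7 and 106 CPM in females and 197, 170 and 142 CPM in males, with female sample 3 well above the other females but below every male, and a log2 fold change of 1.35 (SE 0.28, adjusted p 0.338). H4c2 and H4c11 were also the only members with the hairpin that opens GGTCC, a likeness that was seen after their values were known. With length and GC trends removed H4c3 was at 0.55 and H4c6 at 0.39. H4c2 and H4c11 had 95.5% of their coding bases in common and shared 107 windows of 100 bases.

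The H2B genes followed a similar pattern with smaller differences. The summed level was 1598, 1277 and 1946 CPM in females and 2491, 2434 and 2023 CPM in males, without overlap, at a ratio of means of 1.44. Of 12 tested IDs, 11 were positive, 9 had an unadjusted p under 0.05 and edgeR called none, while DESeq2 called 3. Their median log2 fold change was 0.56.

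H2bc18 was the most abundant H2B transcript, at 897 CPM per kilobase, and lies on chromosome 3. It had 387, 383 and 417 CPM in females and 542, 514 and 409 CPM in males. Male sample 3 was inside the female range, and the log2 fold change was 0.30 (SE 0.13, adjusted p 0.399). H2bc3 and H2bc15 lie on chromosome 13 and had closely matching levels, at 561 and 568 CPM per kilobase. H2bc3 had 213, 168 and 278 CPM in females and 354, 353 and 284 CPM in males, while H2bc15 had 214, 140 and 285 CPM in females and 361, 348 and 281 CPM in males. In both genes samples 3 of the 2 sexes nearly met, with male above female in H2bc3 and the reverse in H2bc15. Their log2 fold changes were 0.58 (SE 0.17) and 0.63 (SE 0.20), both with an adjusted p of 0.341. With length and GC trends removed they were at 0.34 and 0.31, and H2bc18 at 0.19, while H2bc15 was at 0.40 without female sample 2. The tested ID of H2bc4, NM_023422, was 1 of 2 members with a negative value, −0.28 (SE 0.26, adjusted p 0.696), at 9.54, 11.6 and 8.05 CPM in females and 9.4, 6.56 and 7.79 CPM in males, which overlapped.

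The H3 genes encode the replication-dependent H3 proteins that are placed on newly copied DNA. Their summed level was 1046, 952 and 1594 CPM in females and 2160, 1969 and 1584 CPM in males. Samples 3 of both sexes had almost the same level, with the female sample the higher, and the ratio of the means was 1.59. Of 11 tested IDs, 10 were positive, 8 had an unadjusted p under 0.05 and edgeR called none, while DESeq2 called 5. Across the class the median log2 fold change was 0.70.

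H3c6 was the most abundant H3 transcript by count. Its levels were 230, 189 and 303 CPM in females and 435, 409 and 325 CPM in males, without overlap (log2 fold change 0.69, SE 0.17, adjusted p 0.338). H3c7 had 191, 150 and 257 CPM in females and 409, 346 and 264 CPM in males, with only a narrow gap between samples 3 of the sexes (0.77, SE 0.19, adjusted p 0.338). H3c3 had 126, 84.5 and 205 CPM in females and 272, 236 and 186 CPM in males, and here female sample 3 exceeded male sample 3 (0.73, SE 0.25, adjusted p 0.344). Without female sample 2 H3c3 was at 0.48, and without female sample 3 at 1.14. H3c14, on chromosome 3, was the other member with a negative value. It had only 2.59, 3.39 and 5.71 CPM in females and 4.23, 2.9 and 2.6 CPM in males, and its log2 fold change of −0.28 (SE 0.41, adjusted p 0.823) turned to 0.14 without female sample 3.

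The H2A genes had the smallest difference in summed level. It was 807, 640 and 958 CPM in females and 1286, 1061 and 924 CPM in males, so male sample 3 fell just under female sample 3, at a ratio of means of 1.36. All 14 tested IDs were positive, 8 had an unadjusted p under 0.05 and edgeR called none, while DESeq2 called 1, H2ac11. As in H2B, the median log2 fold change was 0.56, which became 0.33 without male sample 1. With length and GC trends removed it was 0.37 in H2A and 0.29 in H2B. H2A had the lowest share of core histone counts in every sample, 12.2% to 14.9%.

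H2ac15, the most abundant H2A transcript, had 252, 161 and 301 CPM in females and 339, 308 and 248 CPM in males, so male sample 3 lay under female samples 1 and 3, and the log2 fold change was 0.32 (SE 0.19, adjusted p 0.534). It was 0.10 without female sample 2, 0.53 without female sample 3 and −0.01 with length and GC trends removed. H2ac20, on chromosome 3, had 136, 130 and 138 CPM in females and 166, 163 and 125 CPM in males. Its females were nearly equal, male sample 3 lay under all of them, and the log2 fold change was 0.17 (SE 0.13, adjusted p 0.643), which was 0.09 without male sample 1, 0.30 without male sample 3 and −0.15 with the trends removed. H2ac4 had 64, 46.6 and 117 CPM in females and 167, 139 and 125 CPM in males, without overlap, and a log2 fold change of 0.90 (SE 0.26, adjusted p 0.341). H2ac11, a low member at 19.4, 16.5 and 22.9 CPM in females and 47.5, 40.1 and 29 CPM in males, did not overlap either (0.97, SE 0.21, adjusted p 0.338). With the trends removed H2ac4 was at 0.58 and H2ac11 at 0.61, and without female sample 3 H2ac4 was at 1.38.

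**Figure D2:**
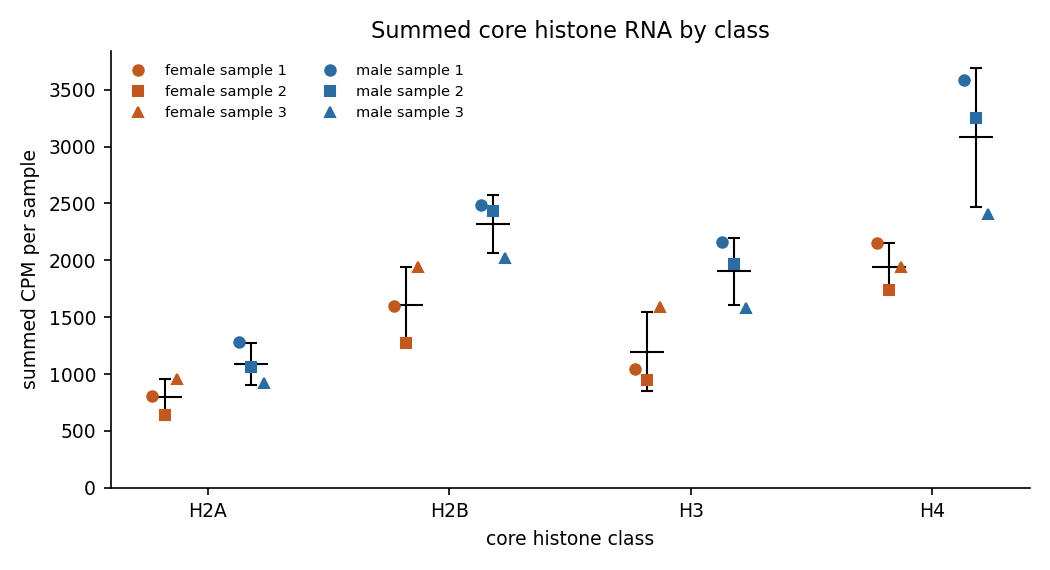
Summed CPM (vertical axis) of the core histone transcripts of each class (horizontal axis), with 1 point per sample and a bar at the mean with its SD (n = 3). Male sample 3 is the lowest male point in every class, at 924 CPM in H2A and 2407 CPM in H4, and the sexes overlap in H2A and H3 but not in H2B and H4.

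Across the members the samples differed within each sex as well. The median deviation of the tested members from their mean over 6 samples, on the log2 scale, was −0.28, −0.63 and 0.03 for females 1, 2 and 3, against 0.54, 0.41 and 0.09 for males 1, 2 and 3. Female sample 3 and male sample 3 were therefore next to each other, and the other 4 samples lay further apart. By class female sample 3 was the highest female in H2A, H2B and H3, but in H4 it was at −0.26, under female sample 1 at −0.14. Without female sample 3 the median log2 fold change was 0.80, without female sample 2 it was 0.50 and without male sample 1 it was 0.55. The classes kept a similar mix in all libraries: the H3 share was 18.7%, 20.7% and 24.8% in female samples and 22.6% to 22.8% in male samples, and the shares of each class overlapped between the sexes except for H2A, at 13.9% to 14.9% in females and 12.2% to 13.5% in males.

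**Figure D3:**
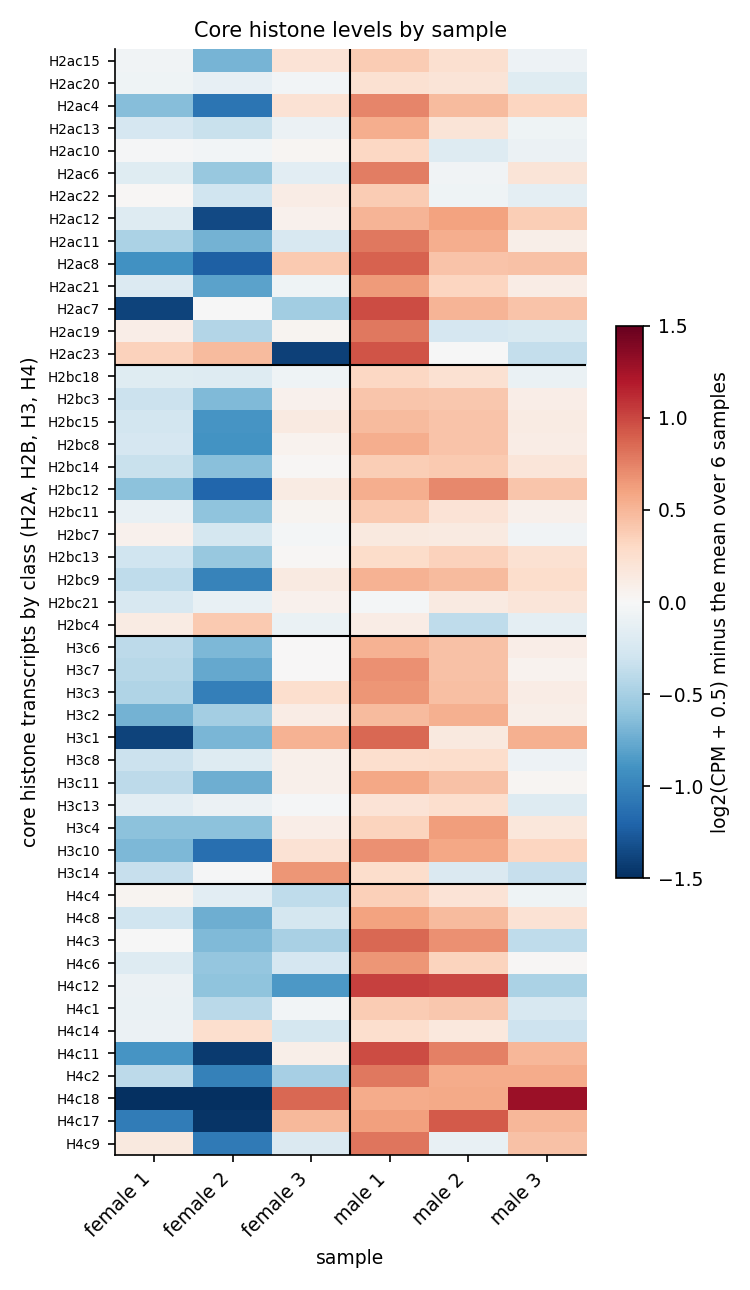
Levels of the 49 tested core histone transcripts (rows, by class and by mean CPM) in the 6 samples (columns), as log2(CPM + 0.5) minus the mean over the samples; red is above and blue below that mean. Female samples 1 and 2 are mostly blue, male samples 1 and 2 mostly red, and samples 3 of both sexes are pale, at medians of 0.03 and 0.09.

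Members were also compared by gene cluster, in NCBIM37 positions. On chromosome 13 they fell into 2 blocks, a first of 20 genes at chr13:21807632-22135545 and a second of 25 genes at chr13:23622919-24026025. The third block held 8 genes at chr3:96023839-96082924. The members on chromosome 13 had the larger differences: the median log2 fold change was 0.70 in each of its blocks and 0.19 on chromosome 3. An unadjusted p under 0.05 was reached by 15 of 18 tested IDs in the first block, 19 of 23 in the second and 2 of 8 on chromosome 3. The sexes did not overlap for 10, 13 and 1 of these, with the males higher.

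The sums showed the same contrast. The first chromosome 13 block had 1420, 1017 and 1806 CPM in females and 2578, 2431 and 1917 CPM in males, a ratio of means of 1.63. The second had 3374, 2750 and 3788 CPM in females and 5862, 5245 and 4213 CPM in males, a ratio of 1.55. Neither overlapped between the sexes, though samples 3 came close. The chromosome 3 block had 812, 841 and 845 CPM in females and 1086, 1036 and 809 CPM in males, a ratio of 1.17. Its female samples were nearly equal, and male sample 3 lay below all of them.

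The ratio of the chromosome 13 sum to the chromosome 3 sum within each sample does not depend on the scaling of the library. Female samples 1, 2 and 3 had ratios of 5.91, 4.48 and 6.62, while male samples 1, 2 and 3 had 7.77, 7.41 and 7.58. The male samples were close together and all above the females, including sample 3. The means were 5.67 ± 1.09 and 7.59 ± 0.181 (SD, n = 3). By class the same ratio had no overlap in H2B, H3 and H4 and overlapped in H2A, where male sample 2, at 4.47, was under female sample 3, at 4.83. In H4 it rested on a single chromosome 3 gene, H4c14, which had 150, 190 and 132 CPM in females and 189, 178 and 128 CPM in males, with full overlap and a log2 fold change of 0.07 (SE 0.17, adjusted p 0.907). The 5 H4 genes of the first chromosome 13 block, with a sum of 254, 171 and 319 CPM in females and 659, 621 and 414 CPM in males, had the largest ratio of means of any class in any block, 2.28.

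**Figure D4:**
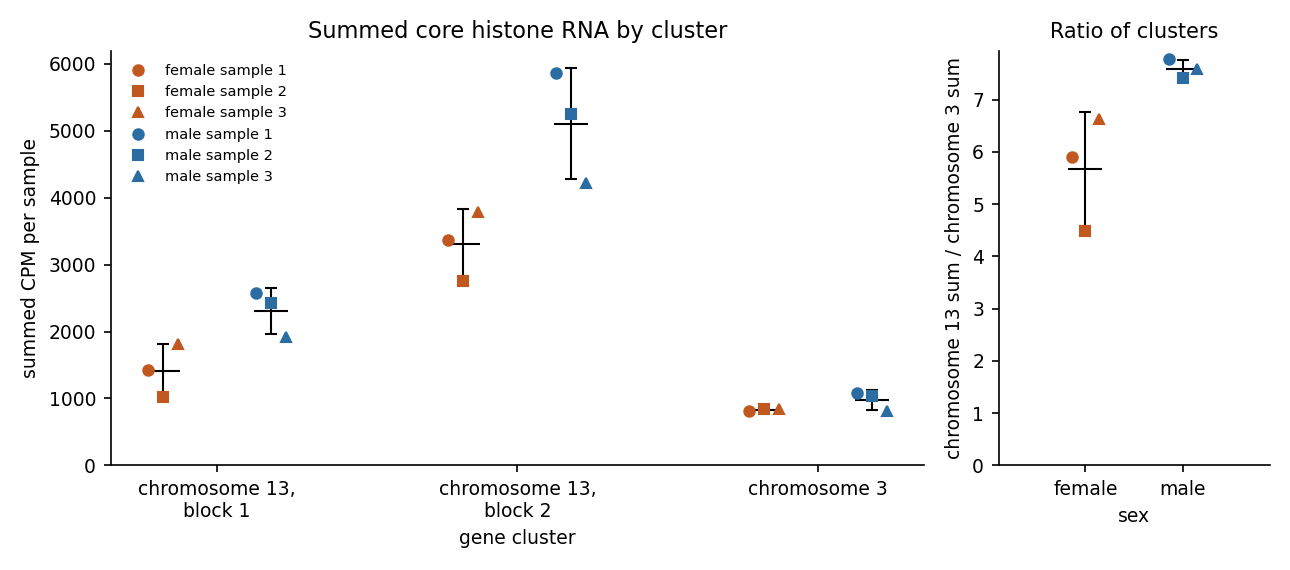
Left, summed CPM (vertical axis) of core histone transcripts in the 2 chromosome 13 blocks and the chromosome 3 block; right, the ratio of the chromosome 13 sum to the chromosome 3 sum by sex. Points are samples and bars the mean with its SD (n = 3); the male ratios, 7.41 to 7.77, all lie above the female ratios, 4.48 to 6.62.

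Several properties moved with the cluster and their part in the contrast was not tested. The chromosome 3 genes had longer transcripts in the GENCODE annotation, with a median of 1044 bases against 475 and 534 in the chromosome 13 blocks, but not by their RefSeq spans, with medians of 498, 476 and 492 bases. With the trends of each sample on GENCODE transcript length and GC content removed, the chromosome 13 and chromosome 3 block medians were 0.43, 0.52 and −0.04, so the chromosome 3 block remained the lowest. The tested members without any window of 100 coding bases in common with another member numbered 4, and 3 of them, H2bc18, H2bc21 and H4c14, were on chromosome 3, while the other was H4c4. These had a median log2 fold change of 0.25, against 0.70 in 12 members that shared up to 50% of their windows and 0.68 in 33 that shared more. The 5 members in which no hairpin was found (H2ac22, H2bc18, H2bc21, H3c8 and H4c1) had a median of 0.29, against 0.70 over the other 44. For H2bc18 the hairpin and the windows were searched in a GENCODE model of 2 exons with 363 coding bases. Its RefSeq span was 493 bases, so the end of the counted transcript may not have been searched.

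Many H2A and H2B genes stand head to head and share the sequence between their starts. There were 10 such pairs, with 168 to 269 bases between the annotated starts, and in 8 pairs both genes were tested. Fold changes were close in some pairs and further apart in others. H2ac20 and H2bc21 had 0.17 and 0.19, H2ac13 and H2bc13 had 0.47 and 0.54, and H2ac12 and H2bc12 had 0.86 and 1.02, whereas H2ac11 and H2bc11 had 0.97 and 0.43, and H2ac7 and H2bc7 had 1.28 and 0.14 (log2, male minus female). H2ac15 and H2bc15 had 0.32 and 0.63, and H2ac8 and H2bc8 had 0.98 and 0.68. Only H2ac6 and the tested ID of H2bc4 had opposite signs, at 0.64 and −0.28. This H2bc4 ID had only 43 to 91 counts a sample, in a gene with 2 transcript models in RefSeq, so it may not stand for the gene. The differences within pairs were not tested. The H2A gene had the larger fold change in 4 of the 8. Per kilobase of transcript the H2B gene had the higher level in 6 of 7 pairs, the exception being H2ac20 at 306 and H2bc21 at 10.2 CPM per kilobase on chromosome 3.

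Histone variants, which can take the place of core proteins in the nucleosome, were compared as a list of 10 genes, of which 6 had a tested ID. edgeR called none, 3 had an unadjusted p under 0.05, all higher in males, and DESeq2 called 2, H3f3a and H2ax. On this list the median log2 fold change was 0.36, and it became 0.73 without female sample 3. H3f3a, 1 of the 2 genes for the H3.3 protein, had 178, 246 and 284 CPM in females and 352, 528 and 341 CPM in males, without overlap (0.78, SE 0.19, adjusted p 0.338). H3f3b, which encodes the same protein, had 840 to 1020 CPM in females and 857 to 992 CPM in males, with a log2 fold change of −0.03 (SE 0.12, adjusted p 0.941). H2ax, the variant phosphorylated at DNA breaks, had 151, 128 and 214 CPM in females and 296, 265 and 221 CPM in males, in which samples 3 again nearly met (0.66, SE 0.18, adjusted p 0.338). H2aj had 26.7, 27.5 and 38.1 CPM in females and 51.4, 43.2 and 39.3 CPM in males (0.53, SE 0.18, adjusted p 0.344). Over all alternatives H3f3a was at 0.56 to 0.95, H2ax at 0.39 to 0.91 and H2aj at 0.41 to 0.73.

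Genes that act on histone mRNA, from transcription to 3′ end processing and decay, had small differences. Of 10 tested IDs edgeR and DESeq2 called none, none had an unadjusted p under 0.05 in the chosen edgeR fit, and the median log2 fold change was 0.07. Lsm11, a protein of the U7 particle, had 88.1, 95.3 and 102 CPM in females and 115, 121 and 103 CPM in males (0.24, SE 0.13, adjusted p 0.477). Npat, the coactivator of histone gene transcription, was higher in females, with 181, 181 and 167 CPM against 139, 158 and 157 CPM in males and no overlap (−0.22, SE 0.12, adjusted p 0.48). Ncbp1, a subunit of the cap-binding complex, was likewise 203, 201 and 198 CPM in females and 190, 180 and 167 CPM in males (−0.16, SE 0.11, adjusted p 0.583). With length and GC trends removed Npat was at −0.01 and Ncbp1 at −0.11. Over all alternatives Lsm11 was at 0.19 to 0.38 and the list median at −0.01 to 0.14. Slbp, the stem-loop binding protein, was not analysed here.

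Genes of DNA replication and S phase showed no common direction. Of 16 tested IDs 8 were positive and 8 negative, edgeR and DESeq2 called none, and the median log2 fold change was 0.00. An unadjusted p under 0.05 was reached by 1 in each direction. Pcna, the sliding clamp of DNA polymerase, had 55.5, 76.4 and 84 CPM in females and 113, 112 and 88.8 CPM in males, without overlap (0.54, SE 0.17, adjusted p 0.341). Mki67, a marker of cycling cells, had the reverse order, with 1560, 1690 and 1320 CPM in females and 883, 1300 and 1240 CPM in males (−0.42, SE 0.16, adjusted p 0.371). Pola1, a subunit of DNA polymerase alpha, had 142, 149 and 149 CPM in females and 113, 129 and 135 CPM in males (−0.23, SE 0.12, adjusted p 0.485). DESeq2 with an RUVr factor called Pcna higher and Mki67 lower in males. With length and GC trends removed Mki67 was at −0.18 and Pola1 at −0.05.

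Histone chaperones, which carry histones to DNA, had a median log2 fold change of 0.02 over 8 tested IDs, 4 in each direction. edgeR and DESeq2 called none, and 1 had an unadjusted p under 0.05. This was Atrx, which helps to place H3.3, with 978, 1060 and 843 CPM in females and 626, 872 and 801 CPM in males, in which the sexes overlapped slightly (−0.33, SE 0.14, adjusted p 0.416), and it was at −0.01 with length and GC trends removed. Nasp had 24.6, 29.1 and 39.8 CPM in females and 22.4, 49.3 and 40.2 CPM in males (0.24, SE 0.26, adjusted p 0.743), and Asf1b had 30.1 to 37.5 CPM in females and 37.5 to 39.4 CPM in males (0.13, SE 0.15, adjusted p 0.779).

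**Figure D5:**
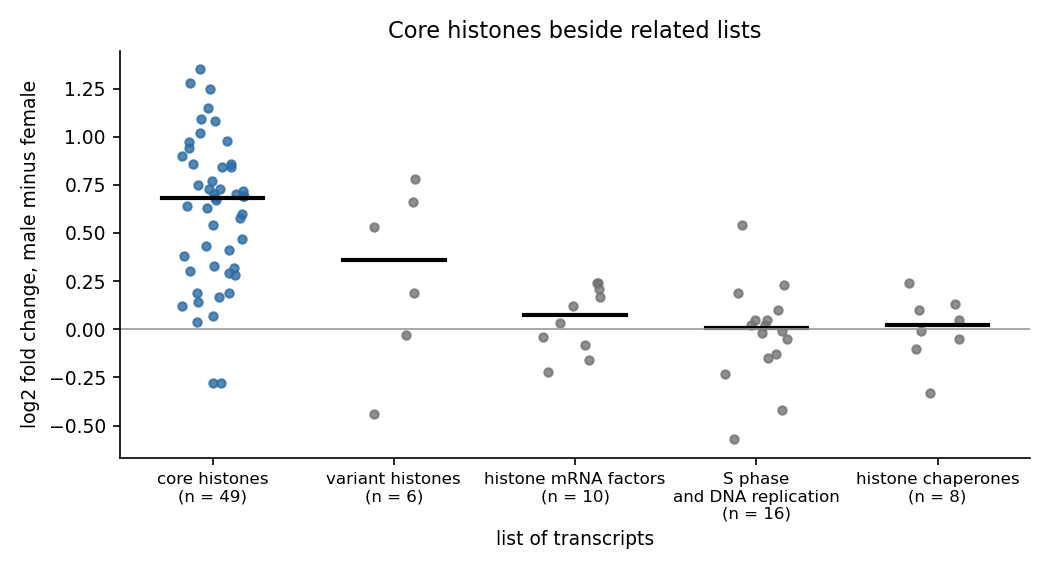
Log2 fold change (male minus female, vertical axis) of the tested transcripts of the core histones and of 4 related lists (horizontal axis); each point is a transcript and the black bar is the median. The median is 0.68 for core histones, 0.36 for variant histones and 0.07, 0.00 and 0.02 for histone mRNA factors, S phase genes and chaperones.

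Other measures of the libraries were set beside these values, and their part in the difference was not tested. Spearman's rho across transcripts between a sample's deviation and transcript length was 0.22, 0.11 and 0.12 for females 1, 2 and 3, against −0.26, −0.15 and 0.00 for males 1, 2 and 3, and male samples 1 and 2, with the most negative values, also had the most core histone RNA. Core histone transcripts are short. The median log2 fold change of the members was 0.54 with each sample's length trend removed, and 0.39 with the length and GC trends removed. In the latter fit 26 of the 49 had an unadjusted p under 0.05 and were higher in males, and 2 were lower in males at that level, H2ac10 at −0.39 (SE 0.14, adjusted p 0.436) and H2ac22 at −0.30 (SE 0.12, adjusted p 0.471). Among cell type markers edgeR called none. The median log2 fold change was 0.16 over 6 progenitor IDs (an unadjusted p under 0.05 for 2 higher and 1 lower in males), 0.08 over 8 neuron IDs (1 higher), −0.17 over 5 erythroid IDs (none), −0.04 over 6 fibroblast IDs (none), −0.61 over 4 cartilage IDs (2 lower) and −0.20 over 3 muscle IDs (1 lower). DESeq2 called 1 progenitor ID, Sox9, and 1 cartilage ID, both lower in males. With an RUVr factor it called the same 2, and also the progenitor gene Hes5 and the neuron gene Tubb3, both higher in males. In the edgeR fit these were at 0.77 and 0.39 on the log2 scale. The summed level of the progenitor list was 2610 to 2900 CPM in females and 2610 to 2980 CPM in males, and that of the neuron list 2500 to 2940 and 2730 to 3530 CPM.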

How the data were processed

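Whole-brain RNA of 3 female and 3 male pools at E15.5 was measured. Per the labels and the study's methods, the authors trimmed reads (Trimmomatic 0.32), aligned them to mm9 (TopHat2 2.1.1), merged assemblies (Cufflinks 2.2.1) and deposited raw counts per RefSeq transcript ID (featureCounts 1.5.1). The settings for strand and for multiply mapped reads are not given in the sources used here.

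Symbols came from a RefSeq table of GRCm38.p6 (23355 of 23485 IDs named), used for names and promoters, and positions from GENCODE vM1 on NCBIM37. Hairpins were searched in genomic sequence after the stop codon, because annotated 3′ ends vary. A new block began where neighbours lay over 250 kb apart. Symbols that have no ID in these tables, such as H2ac1, H2ac18, H2ac24 and H3c15 among the members, were not analysed here.

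Male and female samples were compared with edgeR 4.0.16 (R 4.3.3; quasi-likelihood F test, TMM, IDs with at least 10 counts in at least 1 sample, Benjamini-Hochberg over 13374 IDs; called at an adjusted p under 0.05), after the code was tested on simulated data. SE is the absolute log2 fold change over the square root of F. The study's own test, DESeq2 (1.42.0 here) with RUVr factors, was an alternative, since RUVr takes its factors from the residuals that are then tested. Sums have no test. Levels per kilobase use the RefSeq span of genes in which it was under 3000 bases. Alternatives were other scalings and filters, RUVr factors, length and GC trends, IDs summed by symbol, a replicate block and leaving out each sample.

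The members, lists and tests were chosen with earlier results of these data known. Values per sample are given for called members, the 3 most abundant of each class, the 5 with the lowest p, the most abundant of each block, those with a negative value, and the 3 of each related list with the lowest p. H3f3b, H4c1, H4c14 and the head-to-head pairs were added after their values were seen. Within each sex no sample was a copy of another (chi-square over its degrees of freedom, 9.03 to 44.9). Figures used Python 3.11.15 and matplotlib 3.10.9.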

Additional observations from a re-analysis of the deposited data

How the results depend on the processing

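The summed levels by class and block, which were recomputed under other scalings, without each sample and without H4c4, but not with DESeq2, RUVr factors or trends removed, stayed higher in males, with a log2 ratio of 0.48 to 0.72 for all members when each sample was left out in turn. The number of members called, 1, became 30 without the filter on low counts (1.18% of all IDs were called), 12 with DESeq2 (0.71%), 3 with an RUVr factor in edgeR (0.232%) and 16 with DESeq2 and an RUVr factor (2.53%). It was 1 to 15 when single samples were left out, with 15 without female sample 3 (0.387%). Leaving out male sample 1 gave 2 calls (0.0904%), as did leaving out male sample 3 (0.0539%). H4c2 was among the calls in all of these. Over the related lists the 0 calls became 3 without the filter (H2ax, H3f3a and Pcna), 2 with DESeq2 (H2ax and H3f3a), 3 with DESeq2 and an RUVr factor (H2ax, Mki67 and Pcna), and 0 to 1 when single samples were left out (H2ax without female sample 3). The median log2 fold change of the members was 0.39 with length and GC trends removed and 0.50 to 0.80 when single samples were left out. With length and GC trends removed H2ac15 was at −0.01 and H2ac20 at −0.15, and H3c14 was at −0.54 to 0.14 when single samples were left out, the last without female sample 3 (log2, none called). The variant histone median, 0.36, was 0.53 with filterByExpr and 0.25 to 0.73 when single samples were left out. The median of the chromosome 3 block, 0.19, was 0.11 to 0.31 when single samples were left out. The cause was not tested. The labels number the samples 1 to 3 in each sex, but samples with 1 number did not deviate together (correlations of −0.29, −0.06 and −0.21, and no sample correlated best with its own number). These values gave no sign that the numbers pair the samples, though 3 samples per sex cannot exclude it. With the replicate block edgeR called the same number of members, 1, the median was 0.69, no call on the related lists was made and H4c2 had an adjusted p of 0.00761. Single members had a median SE of 0.20 on the log2 scale with 3 pools per sex. For the 6 untested H2B IDs, with 0 to 3 counts a sample, a difference was not detectable from these counts.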
